A study of Homo sapiens with 9 samples.

Results

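The respiratory chain subunit genes are the nuclear genes for the proteins of the mitochondrial complexes I to V and for cytochrome c. They were taken from the array annotation by symbol: probe sets with a single symbol starting with NDUFA, NDUFB, NDUFC, NDUFS, NDUFV, UQCR, ATP5 or COX4 to COX8, together with SDHA, SDHB, SDHC, SDHD, CYC1 and CYCS. Of 99 such probe sets, 8 belonged to assembly factors, 2 to pseudogenes and 1 to a divergent non-coding transcript, and these were left out. The remaining 88 probe sets stood for 81 of the 18417 genes with a symbol of their own, and for the 7 genes with more than 1 probe set the one with the highest mean was used. Another 9 probe sets that carry several symbols, at least 1 of them of this pattern, were not used. Complex I had 34 members, complex II 3, complex III 8, complex IV 17 and complex V 18, with CYCS as the gene of cytochrome c. NDUFA4, NDUFA4L2, NDUFC2, SDHB, UQCRFS1 and ATP5F1E are not analysed here, and neither are the subunits encoded in mitochondrial DNA.

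Complexes I and II pass electrons from NADH and succinate to ubiquinone, complex III passes them on to cytochrome c, and complex IV reduces oxygen. The proton gradient that complexes I, III and IV build drives complex V, the ATP synthase. Most subunits are imported from the cytosol and assembled with a small set of subunits made inside the mitochondrion, and doxycycline, an antibiotic of the tetracycline class, is known to inhibit that inner protein synthesis.

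RNA was measured with Affymetrix gene arrays. The cells were T47D, an established human luminal breast cancer line, all carrying the retroviral vector pHUSH with a short hairpin RNA against ELF5 that doxycycline switches on. The 9 arrays formed 3 groups of 3: ethanol vehicle alone; 10 nM ORG2058, a synthetic progestin that the titles call progesterone, for 4 days; and the same progestin treatment together with doxycycline at 0.1 µg/ml, also for 4 days. Each array held cells pooled from 3 wells, and the design text describes independent experiments. All groups carried the vector with this hairpin, and none received doxycycline with an empty or control vector. An effect of doxycycline itself and of the hairpin therefore cannot be told apart. No group received doxycycline without progestin. The sources used here do not say whether the line is 1 clone or how long the vehicle cells were cultured.

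All levels are log2 values as deposited, and a difference of 1 is 2-fold. ELF5, the ETS transcription factor that the hairpin targets, had a level of 10.17 ± 0.109 on the vehicle arrays, 11.28 ± 0.0455 on the progestin arrays and 10.42 ± 0.0608 on the arrays with doxycycline added (SD, n = 3 each). The 9 markers of luminal epithelium had mean levels from 8.57 to 13.07, the 3 basal markers from 6.81 to 7.83, the 5 fibroblast markers from 1.33 to 8.40, the 4 endothelial markers from 5.03 to 9.27 and the 5 leukocyte markers from 3.34 to 6.70. The lowest fibroblast mean is that of LUM, which read -10.32 on the third progestin array. That array held 97 tested values below 0, and the other arrays 14 to 41. Some markers changed with progestin: of the luminal genes KRT19 rose, and GATA3 (-0.51), ESR1 (-0.50) and PGR (-2.28) fell; of the others KRT5 (0.61), PECAM1 (0.34) and CDH5 (0.30) rose, and ACTA2 (-0.30) and COL1A1 (-0.42) fell, and 0 of the 5 leukocyte markers passed. The part of these changes in the results was not tested. The third vehicle array stood apart: it was the lowest of the 3 vehicle arrays for 70 of the 81 members, 86.4%, and for 51.2% of all single-symbol genes. These bulk RNA values cannot tell fewer cells from less RNA per cell.

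With progestin, 8 of the 81 members fell and 1 rose against vehicle, and the other 72 did not pass the test (limma with 1 mean per group over all 9 arrays, Benjamini-Hochberg adjustment over 21214 probe sets, adjusted p under 0.05). The members called made up 11.1%, while 29.0% of all tested probe sets passed in this comparison, 13.4% higher and 15.6% lower. The members that fell were CYC1 of complex III, COX8A of complex IV, the cytochrome c gene CYCS, ATP5F1B of complex V, and NDUFA9, NDUFAB1, NDUFS3 and NDUFS6 of complex I. NDUFA13 of complex I rose. The direction of the calls depended on the scaling: after quantile normalization 16 members passed, 10 higher and 6 lower, and 6 of the 9 above were among them, where 15.1% of all probe sets passed higher and 17.3% lower. After centring each array on its median, 11 passed, 1 higher and 10 lower, where 11.8% of all passed higher and 17.7% lower.

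Changes of the members were small in size. Their log2 changes ran from -0.52 to 0.41, 36 above 0 and 45 below, with a median of -0.03 against 0.02 over all single-symbol genes. That median was 0.03 after quantile normalization and -0.06 after median centring, so its sign depended on the scaling. It was 0.0110 without the second vehicle array and -0.0635 without the third. None of the 81 changed by 2-fold, and the 95% interval of the change lay within 2-fold for all 81 and within 1.5-fold for 75. The standard error of a member's change had a median of 0.0848, against 0.120 over all tested probe sets. Without adjustment, p was under 0.05 for 20 members, where 39.0% of all probe sets passed that mark. The progestin and vehicle arrays did not overlap for 32 members, 39.5%, which lies near the 42.3% of all probe sets.

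**Figure D1:**
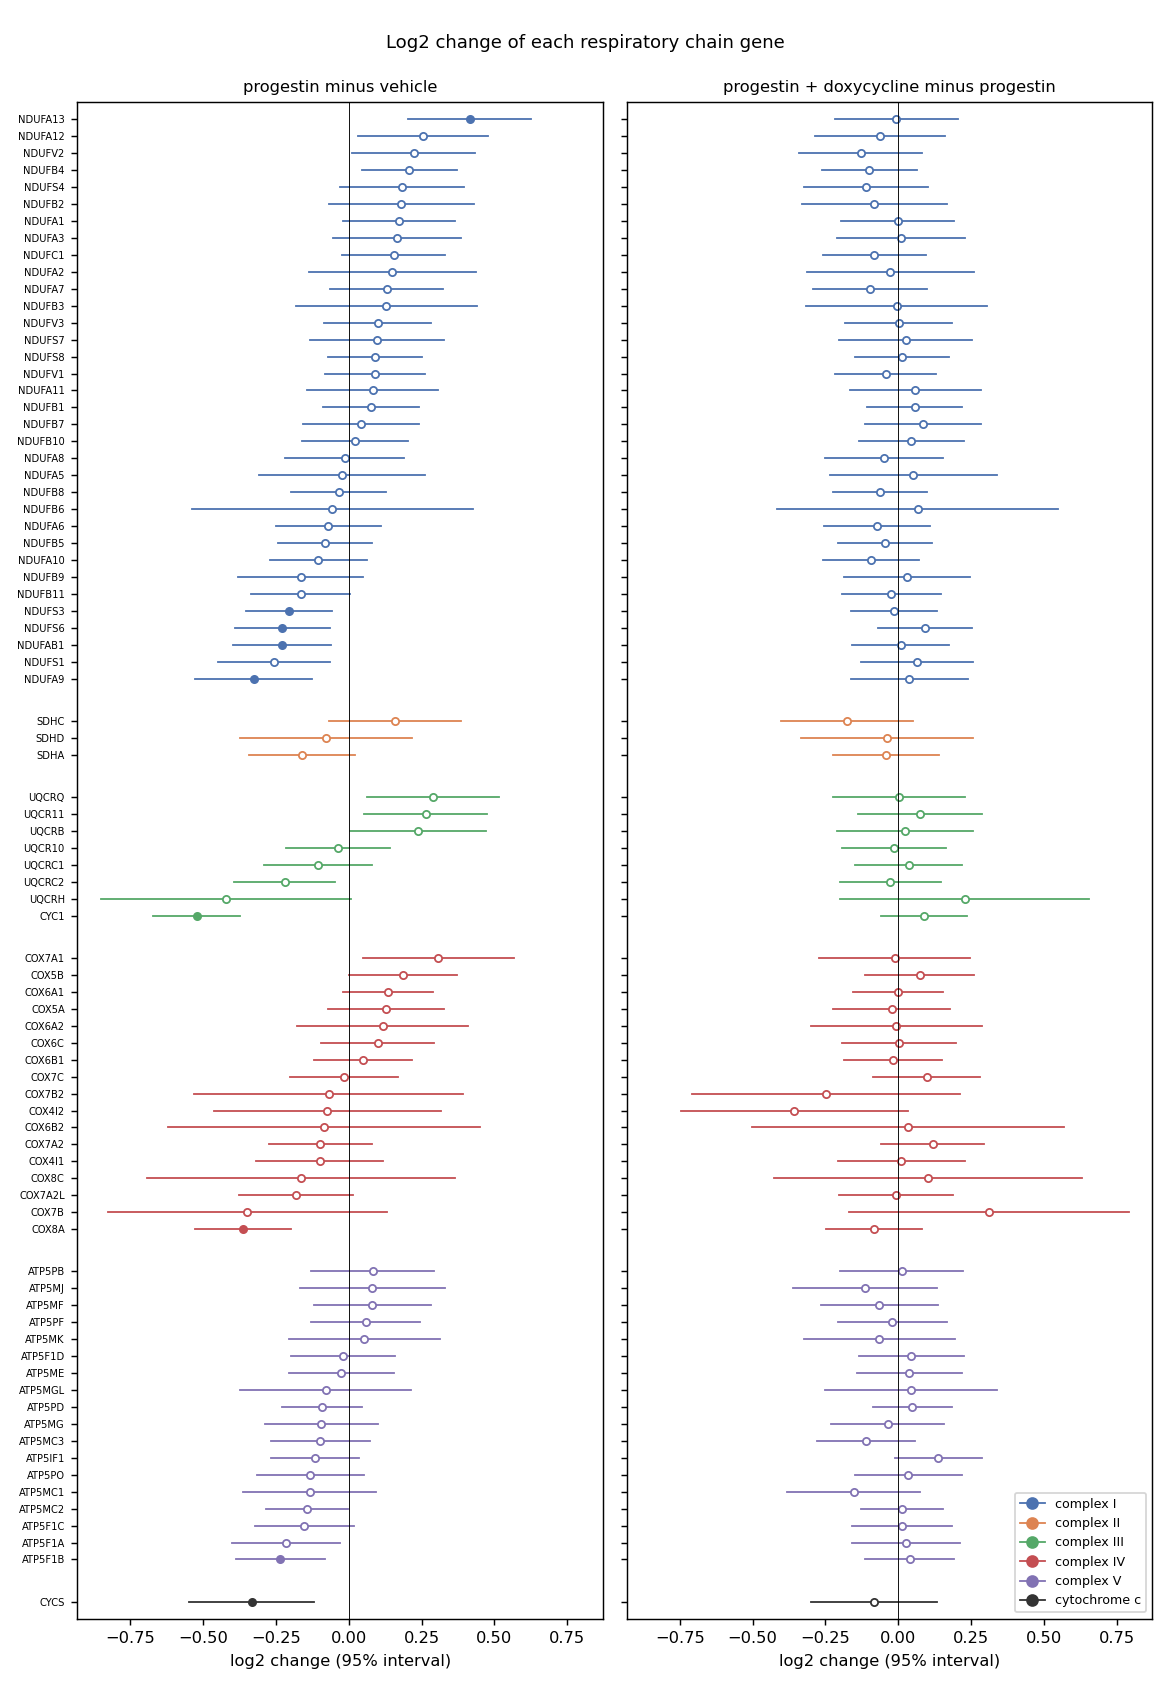
Log2 change (x axis) of each of the 81 members (y axis, grouped by complex) with progestin against vehicle, left, and with doxycycline added to progestin, right. Lines are the 95% interval; filled points passed an adjusted p of 0.05 and open points did not, and on the left CYC1 lies lowest at -0.52 and NDUFA13 highest at 0.41, while all points on the right are open.

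CYC1 encodes cytochrome c1, the haem protein of complex III that hands electrons to cytochrome c. Its level was 11.32, 11.38 and 11.24 on the vehicle arrays, 10.78, 10.80 and 10.80 on the progestin arrays, and 10.88, 10.91 and 10.85 with progestin plus doxycycline. All 6 treated arrays lay below all 3 vehicle arrays, and the doxycycline arrays lay slightly above the progestin arrays. CYC1 fell by 0.52 on the log2 scale with progestin (SE 0.06, 95% interval -0.67 to -0.37, 1.44-fold lower, limma adjusted p = 0.000488). Between progestin plus doxycycline and progestin alone the difference was 0.09 (95% interval -0.06 to 0.24, adjusted p = 0.59).

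CYCS encodes cytochrome c itself, the small carrier between complexes III and IV that also takes part in apoptosis. Its vehicle values were 9.38, 9.46 and 9.33, its progestin values 8.92, 9.02 and 9.24, and its values with doxycycline 8.97, 8.92 and 9.03. The third progestin array lay closest to vehicle, but no treated array reached the lowest vehicle array. The gene fell by 0.33 with progestin (SE 0.09, 95% interval -0.55 to -0.12, 1.26-fold lower, limma adjusted p = 0.0295). This call was lost with either of the first 2 arrays of vehicle or of progestin left out, with an adjusted p of up to 0.099, and when only the 2 groups were fitted. RefSeq lists 45 pseudogenes named after CYCS, so some of its signal may be shared with such copies.

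Among complex IV genes, COX8A, the small subunit VIIIa found in most tissues, fell. It measured 10.11, 10.16 and 10.03 with vehicle, 9.77, 9.70 and 9.73 with progestin, and 9.74, 9.63 and 9.58 with progestin plus doxycycline. Vehicle stood apart from both treated groups. The change with progestin was -0.36 (SE 0.07, 95% interval -0.53 to -0.20, 1.29-fold lower, limma adjusted p = 0.00595).

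NDUFA13, an accessory subunit of complex I also known as GRIM-19, was the member that rose. Vehicle arrays read 8.83, 8.87 and 8.68, progestin arrays 9.24, 9.09 and 9.30, and doxycycline arrays 9.24, 9.28 and 9.09. The change with progestin was 0.41 (SE 0.09, 95% interval 0.20 to 0.63, 1.33-fold higher, limma adjusted p = 0.0105). Both treated groups covered nearly the same range, above every vehicle array.

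NDUFA9, an accessory subunit near the site where ubiquinone enters complex I, read 8.68, 8.81 and 8.66 with vehicle, 8.36, 8.32 and 8.48 with progestin, and 8.38, 8.56 and 8.34 with doxycycline. It fell by 0.33 (SE 0.09, 95% interval -0.53 to -0.13, 1.25-fold lower, limma adjusted p = 0.0242). The call was lost without any one of the first 2 vehicle or first 2 progestin arrays, with an adjusted p of up to 0.0849. ATP5F1B, the catalytic beta subunit of the ATP synthase head, had values of 12.71, 12.71 and 12.63, then 12.48, 12.38 and 12.48, then 12.48, 12.54 and 12.44 in the same order of groups. It fell by 0.23 (SE 0.07, 95% interval -0.39 to -0.08, 1.18-fold lower, limma adjusted p = 0.0305). In both genes all treated arrays lay below all vehicle arrays.

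The other complex I genes that fell had adjusted p values closest to the threshold. NDUFS3, a core subunit of the arm that reaches into the matrix, read 10.66, 10.69 and 10.62 with vehicle and 10.45, 10.44 and 10.45 with progestin, a fall of 1.15-fold (limma adjusted p = 0.0433). NDUFS6, an accessory subunit that binds zinc, read 10.59, 10.55 and 10.46, then 10.31, 10.23 and 10.38, a fall of 1.17-fold (adjusted p = 0.0429). NDUFAB1, the mitochondrial acyl carrier protein, which also serves fatty acid synthesis, read 9.81, 9.80 and 9.64, then 9.54, 9.53 and 9.48, a fall of 1.17-fold (adjusted p = 0.0459). In these 3 genes the progestin arrays lay below the vehicle arrays by less than the changes of CYC1, COX8A and NDUFA13. With 1 of the 9 arrays left out in turn, NDUFS3 passed in 1 of 9 fits, NDUFS6 in 2, NDUFAB1 in 1 and ATP5F1B in 3, whereas CYC1, COX8A and NDUFA13 passed in all 9.

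**Figure D2:**
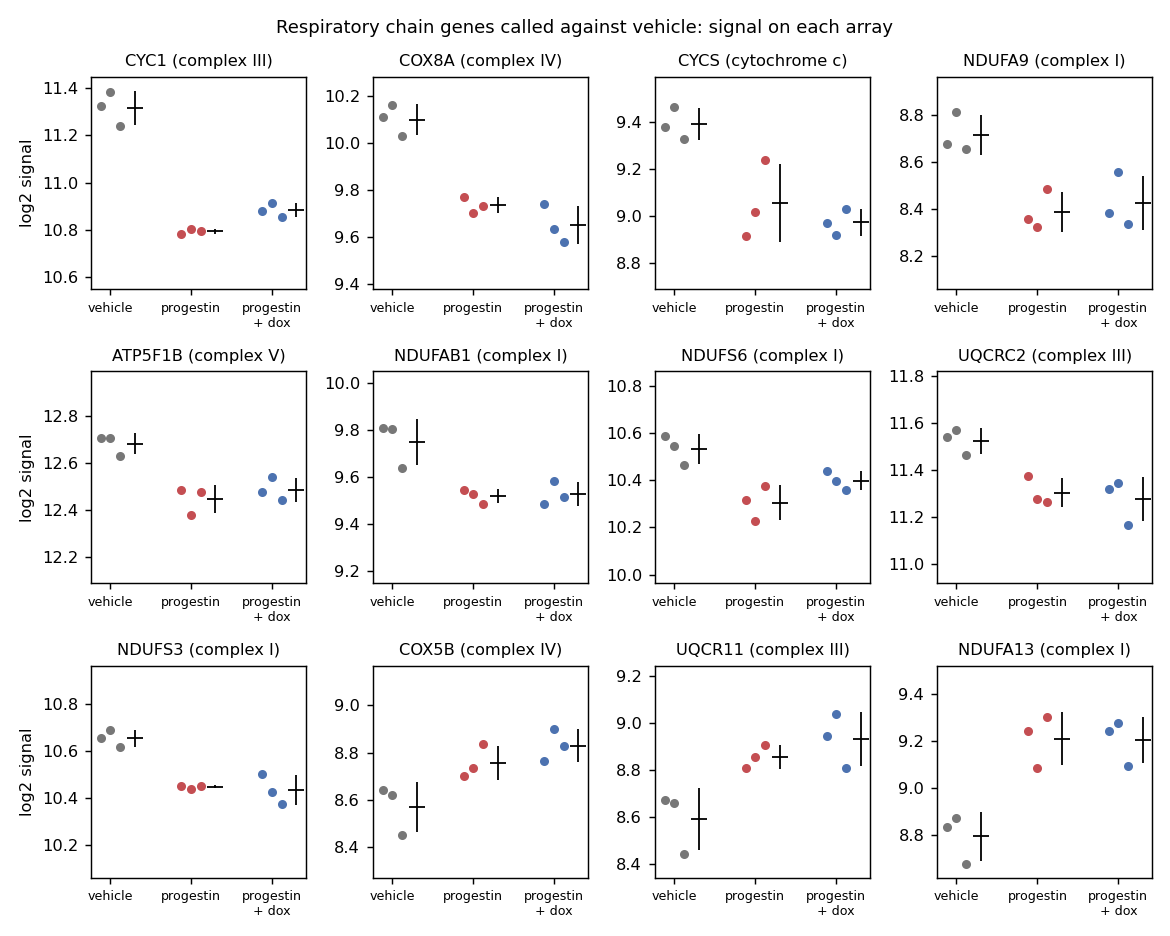
Log2 levels of the members that passed in a comparison with vehicle (1 panel each, every y axis spanning 0.9 log2 units) in the 3 groups of arrays. Points are replicates 1 to 3 from left to right and bars show the mean ± SD; for CYC1 the 3 vehicle arrays lie at 11.24 and above and the 6 treated arrays at 10.91 and below.

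Promoters were read for 4 of the members that passed, to show where short motifs of factors tied to this pathway or to this experiment lie. They are the 160 bases before the RefSeq start of each gene (GRCh38.p14), written 5′ to 3′ on the gene's strand. Capitals mark a match to CCGGAAG, a core that ETS factors such as ELF5 bind, in COX8A and NDUFA13, or, in NDUFA9, to the NRF1-like motif, GCGCA and GCGC with 1 base between them, which the nuclear respiratory factor NRF1 binds, on either strand. The CYCS stretch held no match. Not shown are NDUFS3, which held 2 ETS-like matches in the 250 bases searched, and NDUFAB1 and NDUFS6, which held no match there. CYC1 and ATP5F1B had no promoter in the RefSeq table used.
COX8A, chr11:63974460-63974619, plus strand: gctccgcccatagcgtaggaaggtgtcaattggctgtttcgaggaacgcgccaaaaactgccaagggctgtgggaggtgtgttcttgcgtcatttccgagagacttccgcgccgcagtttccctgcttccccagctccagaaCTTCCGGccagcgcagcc
NDUFA13, chr19:19516065-19516224, plus strand: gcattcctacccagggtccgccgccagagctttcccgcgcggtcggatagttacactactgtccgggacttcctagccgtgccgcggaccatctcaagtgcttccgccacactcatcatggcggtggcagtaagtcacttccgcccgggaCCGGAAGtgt
NDUFA9, chr12:4648954-4649113, plus strand: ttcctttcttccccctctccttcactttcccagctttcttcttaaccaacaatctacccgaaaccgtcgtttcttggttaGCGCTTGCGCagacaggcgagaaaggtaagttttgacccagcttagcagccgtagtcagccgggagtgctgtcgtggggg
CYCS, chr7:25125261-25125420, minus strand: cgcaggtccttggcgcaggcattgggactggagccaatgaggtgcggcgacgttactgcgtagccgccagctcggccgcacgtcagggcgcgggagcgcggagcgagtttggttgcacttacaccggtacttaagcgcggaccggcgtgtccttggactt

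By symbol, 68 of the 81 members matched at least 1 promoter in the RefSeq table, 81 promoters in all, and 250 bases before each start were searched on both strands. The ETS-like CCGGAAG was present in 18 of them, 22.2%, against 8.52% of all 35116 promoters in the table. The NRF1-like motif was present in 14, 17.3%, against 5.07% of all. No member promoter held TCAAGGTCA, the motif of oestrogen-related receptors, or a steroid receptor element, GNACA and TGTNC with 3 bases between them, which were found in 0.319% and 0.327% of all promoters.

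The 17 genes with an ETS-like match had a median change with progestin of 0.05, and 1 of them rose and 2 fell. The 51 without a match had a median of -0.03, and 4 fell. Among the 14 genes with an NRF1-like match, 1 fell and the median was -0.05, against -0.02 for the 54 without, of which 1 rose and 5 fell. A match is a run of letters, not a bound site.

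Complex I had 5 called members of 34, 14.7%, where 29.0% of all tested probe sets passed. Its median change with progestin was 0.08, with 20 members above 0 and 14 below, and its changes ran from -0.33 to 0.41. Without the third vehicle array the median was 0.0096, without the third progestin array 0.05, and after median centring 0.0411. Of the 6 core subunits measured, which include those that carry the flavin and iron-sulfur clusters, NDUFS3 fell and the others did not pass the test. NDUFS1, the largest core subunit, lay just outside the threshold, with levels of 10.09, 10.16 and 9.95 on vehicle and 9.85, 9.80 and 9.80 on progestin arrays (difference -0.26, limma adjusted p = 0.0526). NDUFV2, which carries a cluster next to the flavin, differed by 0.22 in the other direction (adjusted p = 0.11), and its other probe set gave 0.24. The identifier of that other set lies between those of NDUFA7 and COX6B2 on chromosome 19, while NDUFV2 is on chromosome 18. Which locus it reads was not tested. Both probe sets of NDUFB4 held the same values, with a difference of 0.21 (adjusted p = 0.0605).

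Complex II is the succinate dehydrogenase of the citric acid cycle, and none of its 3 members passed. SDHA, its flavin subunit, read 11.33, 11.33 and 11.25 with vehicle and 11.20, 11.06 and 11.17 with progestin (difference -0.16, 95% interval -0.34 to 0.02, limma adjusted p = 0.177). SDHC, a membrane anchor, differed by 0.16 with the probe set used here (adjusted p = 0.282) and by -0.06 with its dimmer probe set (adjusted p = 0.735). For SDHD, the other anchor, the corresponding values were -0.08 (adjusted p = 0.702) and -0.20 (adjusted p = 0.169). RefSeq names 5 pseudogenes after SDHC and 7 after SDHD. The brighter probe set need not be the one at the gene's own locus, and which locus each reads was not tested. The identifier of the SDHC probe set used lies between those of ATP5MC1 and ATP5PD, both on chromosome 17, and far from that of its dimmer set. The identifier of the SDHD probe set used lies near that of ATP5IF1 on chromosome 1, while SDHD is on chromosome 11. That of ATP5MK in complex V lies near COX7B on X, while ATP5MK is on chromosome 10. With the dimmer probe sets SDHC and SDHD were both below 0, as was SDHA.

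Complex III had CYC1 as its called member of 8, 12.5% beside the 29.0% of all probe sets. Its median of -0.07 was -0.0364 without the second vehicle array, -0.1273 without the third and -0.0212 after quantile normalization. UQCRH, the hinge protein that binds cytochrome c1, gave a wide interval: 8.18, 8.35 and 7.94 with vehicle, 7.81, 7.53 and 7.86 with progestin and 7.91, 8.33 and 7.64 with doxycycline (progestin against vehicle -0.42, SE 0.19, 95% interval -0.85 to 0.01, limma adjusted p = 0.134). Its doxycycline arrays spanned most of the range of the other groups. UQCRQ, a small subunit, read 9.09, 9.14 and 8.83 with vehicle and 9.25, 9.33 and 9.36 with progestin, a difference of 0.29 (adjusted p = 0.0605).

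Complex IV, cytochrome c oxidase, had COX8A as its called member of 17, 5.88% beside the 29.0% of all probe sets, and the median was -0.07. Without the dimmest 25% of probe sets, which held 3 of its members, the median was 0.02, and it was 0.0344 without the third progestin array and 0.0169 without the third vehicle array. Many of its subunits exist as isoforms, and among these families only COX8A passed. Of COX4I1, the form found in most tissues, the progestin difference was -0.10 (limma adjusted p = 0.484), and of COX4I2, the form known from lung and low oxygen, -0.07 (adjusted p = 0.793). COX7A1, the heart and muscle form, read 5.73, 5.80 and 5.96, then 6.30, 5.99 and 6.12, then 6.28, 6.09 and 6.00 in vehicle, progestin and doxycycline arrays. That is a difference of 0.31 with progestin (adjusted p = 0.0772), whereas COX7A2, the widespread form, differed by -0.10 (adjusted p = 0.397). COX7A2L, which helps join complexes III and IV into supercomplexes, differed by -0.18 (adjusted p = 0.156).

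The remaining complex IV isoforms also did not pass. COX6A1 differed by 0.13 (limma adjusted p = 0.184) and the muscle form COX6A2 by 0.12 (adjusted p = 0.555). COX6B1 differed by 0.05 (adjusted p = 0.672) and the testis form COX6B2 by -0.08 (adjusted p = 0.826). COX7B had the widest spread of all members on the progestin arrays, with 7.58, 7.22 and 8.01 against 8.00, 8.21 and 7.64 with vehicle (difference -0.35, adjusted p = 0.264). COX7B2 gave -0.07 (adjusted p = 0.836) and COX8C, a testis form, -0.16 (adjusted p = 0.656).

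Complex V had ATP5F1B as its called member of 18, 5.56% beside the 29.0% of all probe sets. It had a median of -0.09, with 13 differences below 0 and 5 above. The median was -0.0456 without the second vehicle array, -0.0459 after quantile normalization and -0.1382 without the third vehicle array. All 4 measured subunits of its F1 part, the catalytic head with the central stalk, were below 0. Beside ATP5F1B these were ATP5F1A at -0.22 (limma adjusted p = 0.082) and the stalk subunits ATP5F1C at -0.15 (adjusted p = 0.172) and ATP5F1D at -0.02 (adjusted p = 0.884). The median of these 4 was -0.18, and -0.12 after quantile normalization. All 3 genes of subunit c, which forms the rotor ring in the membrane and which ATP5MC1, ATP5MC2 and ATP5MC3 encode as the same mature protein, were also below 0 without passing: -0.13 (adjusted p = 0.371), -0.14 (adjusted p = 0.119) and -0.10 (adjusted p = 0.379). The peripheral stalk subunit ATP5PB had the highest difference of the complex, 0.08 (adjusted p = 0.564). ATP5IF1, the inhibitor of ATP hydrolysis by the enzyme, differed by -0.12 (adjusted p = 0.236).

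The median over all members of their deviations from each gene's mean was 0.04, 0.08 and -0.08 on the vehicle arrays, 0.01, -0.05 and 0.01 on the progestin arrays and -0.01, 0.04 and -0.06 on the arrays with doxycycline. The first 2 vehicle arrays were among the highest and the third was the lowest of all 9, so the groups overlapped. The within-group SD of these medians was 0.062, against 0.0258 for the same median over all genes. Leaving out the third vehicle array raised the members called with progestin to 13, 1 higher and 12 lower, and leaving out either of the other vehicle arrays, or either of the first 2 progestin arrays, cut them to 3. The third vehicle array was the lowest of the 3 for all 12 members that passed against vehicle in either comparison, those that fell and those that rose alike; its part in the calls was not tested beyond these fits. Without the first doxycycline array, which enters the fit only through the spread, 5 passed. Over all probe sets the calls with progestin also moved, from 6161 in the main fit to between 4632 and 6118 with 1 array left out.

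**Figure D3:**
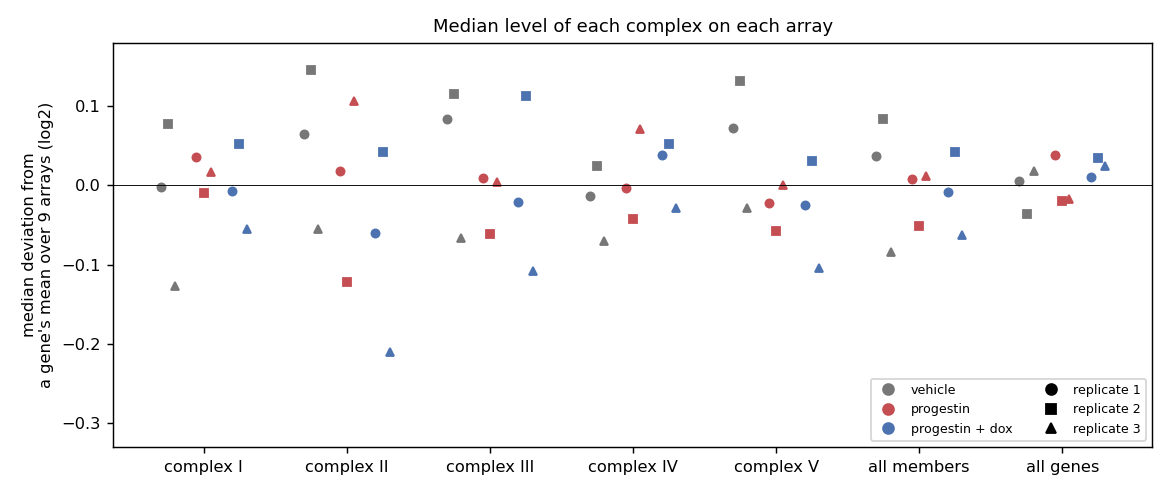
Median deviation (log2 units, y axis) of the members of each complex from the gene's own mean over 9 arrays, for the vehicle, progestin and progestin plus doxycycline arrays, 1 point per array. Over all members the vehicle arrays lie at 0.04, 0.08 and -0.08, a wider range than either treated group.

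For doxycycline added to progestin, none of the 81 members passed the test, where 0.0189% of all tested probe sets passed, 4 of 21214, 0.00943% higher and 0.00943% lower. At an unadjusted p under 0.05, 0 members were found, against 14.0% of all probe sets, and no alternative fit that was run called a member. ELF5 fell by 0.87 in the same comparison (1.83-fold lower, limma adjusted p = 0.029). The members' differences ran from -0.36 to 0.31, with a median of -0.00, 40 above 0 and 41 below. The 95% interval lay within 2-fold for all 81 and within 1.5-fold for 76.

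The medians by complex for doxycycline added to progestin were -0.01 for complex I, -0.04 for complex II, 0.03 for complex III, -0.00 for complex IV and 0.01 for complex V. The arrays of the 2 groups did not overlap for 5 members, 6.17%, against 21.2% of all probe sets. CYC1, COX7A2 and ATP5IF1 were higher on all 3 arrays with doxycycline, and SDHC and ATP5MC3 lower. For ATP5IF1 the values were 10.22, 10.16 and 10.16 with progestin and 10.28, 10.31 and 10.36 with doxycycline added, beside 10.36, 10.28 and 10.24 with vehicle. The difference of 0.14 did not pass (95% interval -0.01 to 0.29, limma adjusted p = 0.395). SDHC read 10.31, 10.23 and 10.26, then 10.13, 10.20 and 9.95 (difference -0.18, adjusted p = 0.473), but with its dimmer probe set the arrays overlapped and the difference was -0.01 (adjusted p = 0.988).

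The lowest and highest differences with doxycycline were both in complex IV. COX4I2 read 5.91, 5.79 and 6.01 with progestin and 5.30, 5.47 and 5.87 with doxycycline added (difference -0.36, 95% interval -0.75 to 0.03, limma adjusted p = 0.397). COX7B differed by 0.31 (adjusted p = 0.556), and its doxycycline arrays, at 8.00, 7.81 and 7.94, lay within the range of its progestin arrays. ATP5MC1 read 9.69, 9.48 and 9.59, then 9.49, 9.52 and 9.30 (difference -0.15, adjusted p = 0.547), while ATP5MC2, another gene for the same subunit c, differed by 0.01 (adjusted p = 0.949).

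Against vehicle, progestin plus doxycycline gave 9 called members, 3 higher and 6 lower, or 11.1%, where 28.1% of all tested probe sets passed, 15.6% higher and 12.5% lower. This comparison uses the same vehicle arrays as the one above, so agreement between them is not separate evidence. After quantile normalization 21 members passed, 4 higher and 17 lower, where 3395 of all 21214 probe sets passed higher and 3377 lower. After median centring 14 passed, 1 higher and 13 lower, where 13.1% of all passed higher and 15.3% lower. CYC1 fell 1.35-fold (limma adjusted p = 0.00131), COX8A 1.36-fold (adjusted p = 0.00195), CYCS 1.34-fold (adjusted p = 0.011), NDUFA9 1.22-fold (adjusted p = 0.0401) and NDUFS3 1.16-fold (adjusted p = 0.0341). NDUFA13 rose 1.33-fold (adjusted p = 0.0111). The differences of ATP5F1B, NDUFAB1 and NDUFS6 were -0.20, -0.22 and -0.14 and did not pass (adjusted p = 0.0626, 0.0539 and 0.212).

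The other 3 members called here had not passed with progestin alone. UQCR11, a small subunit of complex III, read 8.67, 8.66 and 8.44 with vehicle, 8.81, 8.85 and 8.91 with progestin and 8.94, 9.04 and 8.81 with doxycycline added; its difference from vehicle was 0.26 (limma adjusted p = 0.0658) and then 0.34 (1.26-fold, adjusted p = 0.0258). COX5B, a zinc-binding subunit of complex IV, read 8.64, 8.62 and 8.45, then 8.70, 8.73 and 8.84, then 8.76, 8.90 and 8.83, with differences of 0.19 (adjusted p = 0.128) and 0.26 (1.20-fold, adjusted p = 0.0448). UQCRC2, a core protein of complex III without a redox centre, read 11.54, 11.57 and 11.46, then 11.38, 11.28 and 11.26, then 11.32, 11.34 and 11.17, with differences of -0.22 (adjusted p = 0.0624) and -0.25 (1.19-fold lower, adjusted p = 0.0413). The arrays with doxycycline did not overlap vehicle for 27 members, 33.3%, against 41.8% of all probe sets. For UQCR11, COX5B and UQCRC2 both treated groups lay on the same side of vehicle, and none differed between the treated groups by the test.

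With an array left out in turn, CYC1, COX8A, CYCS and NDUFA13 passed against vehicle in all 9 fits, UQCR11 in 6, NDUFA9 and NDUFS3 in 2 each, UQCRC2 in 1 and COX5B in 0. Leaving out any of the first 2 vehicle or first 2 progestin arrays cut the members called to 5, and leaving out the third vehicle array gave 11. Over all probe sets this comparison gave 5953 calls in the main fit and 4815 to 5889 with 1 array left out.

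The other genes of the pathway were read from lists of the factors that build, supply and regulate the chain. Of 164 genes in the lists other than the mitochondrial ribosome, 13 rose and 35 fell with progestin, 29.3%, and 0 passed for doxycycline added to progestin. The median of these genes was -0.13. With doxycycline and progestin together against vehicle, 12 rose and 34 fell, 28.0%. These shares lay near those of all probe sets, 29.0% and 28.1%. The split between higher and lower moved with the scaling in some lists: after quantile normalization it was 2 higher and 5 lower for complex I assembly, 5 and 5 for the citric acid cycle and 2 and 4 for protein import, and after median centring 3 and 5 for complex IV assembly.

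Among 15 assembly factors of complex I, 2 rose and 3 fell with progestin, 33.3% beside the 29.0% of all probe sets, with a median of -0.11. COA1 fell by 0.59 (limma adjusted p = 0.00115) and NDUFAF5, which hydroxylates a core subunit, by 0.45 (adjusted p = 0.00735), while TIMMDC1, a membrane factor of the assembly, rose by 0.43 (adjusted p = 0.00547) and NDUFAF1 by 0.37 (adjusted p = 0.00985). Among 22 factors of complex IV, 3 rose and 3 fell, 27.3%. LRPPRC, which stabilises mitochondrial messenger RNAs, read 10.71, 10.70 and 10.68 with vehicle, 9.93, 9.93 and 9.95 with progestin and 10.12, 10.15 and 10.08 with doxycycline added. It fell by 0.76 with progestin (SE 0.06, adjusted p = 3.46e-05). CMC2 fell by 0.78 (adjusted p = 0.000112), whereas COA3 rose by 0.41 (adjusted p = 0.00294) and COX14 by 0.50 (adjusted p = 0.00577). ATPAF2, which helps build the ATP synthase head, rose by 0.46 and was the called gene of 4 in its list (adjusted p = 0.0097). None of 9 factors of complexes II and III passed, with UQCC2 at -0.18 (adjusted p = 0.25) and LYRM7 at -0.22 (adjusted p = 0.304).

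Of 15 carriers and pores that move metabolites across the mitochondrial membranes, 7 fell and 0 rose, 46.7% beside the 13.4% higher and 15.6% lower of all probe sets, with a median of -0.15. SLC25A5, an exchanger of ADP for ATP, read 11.21, 11.30 and 11.26 with vehicle, 10.65, 10.50 and 10.63 with progestin and 10.49, 10.46 and 10.47 with doxycycline added. It fell by 0.66 (SE 0.07, limma adjusted p = 0.000178). SLC25A13, the aspartate and glutamate carrier citrin, fell by 1.26 (adjusted p = 1.57e-05), and the outer membrane channels VDAC2 and VDAC3 fell by 0.37 (adjusted p = 0.00218) and 0.41 (adjusted p = 0.00221). After quantile normalization 1 of the 15 was higher and 7 were lower.

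The citric acid cycle list had 4 genes higher and 6 lower of 22, 45.5% beside the 29.0% of all probe sets. PDHB, of pyruvate dehydrogenase, fell by 0.67 (limma adjusted p = 0.000451), IDH3A, of the NAD-dependent isocitrate dehydrogenase, by 0.64 (adjusted p = 0.000623), and ACO1, the cytosolic aconitase that also binds iron-responsive RNA, by 0.81 (adjusted p = 0.000143), while the pyruvate carrier subunit MPC2 rose by 0.60 (adjusted p = 0.000309). Of 13 genes of coenzyme Q synthesis, 1 rose and 3 fell, 30.8%. COQ7 fell by 0.54 (adjusted p = 0.000694), COQ2 by 0.86 (adjusted p = 0.0015) and PDSS1 by 0.63 (adjusted p = 0.00459), and COQ10B rose by 0.34 (adjusted p = 0.0195).

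For making and importing mitochondrial proteins, the ribosome list had 5 genes higher and 16 lower of 73, 28.8% beside the 29.0% of all probe sets. Its median was -0.14, and after median centring 1 was higher and 23 were lower. MRPL30 fell by 0.51, MRPL12 by 0.45, MRPL17 by 0.44 and MRPS18C by 0.39 (limma adjusted p = 0.00392, 0.00519, 0.00543 and 0.00512). The import list had 1 gene higher and 4 lower of 24, 20.8%. The outer membrane receptor TOMM70 fell by 0.40 (adjusted p = 0.011), TIMM21 by 0.41 (adjusted p = 0.0126) and TIMM44 by 0.31 (adjusted p = 0.0224), and TIMM22 rose by 0.34 (adjusted p = 0.0294).

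In the list for replication and transcription of mitochondrial DNA, 5 of 22 fell and 0 rose, 22.7%, where 29.0% of all probe sets passed. TFAM, which packages that DNA and starts its transcription, read 8.91, 8.79 and 8.78 with vehicle, 8.23, 8.04 and 8.17 with progestin and 8.06, 8.23 and 8.02 with doxycycline added. It fell by 0.68 (SE 0.09, 1.60-fold lower, limma adjusted p = 0.000586), a larger change than any respiratory chain member showed. TOP1MT fell by 0.95 (adjusted p = 6.34e-05), PRIMPOL by 0.78 (adjusted p = 0.00112) and SLIRP, the partner of LRPPRC, by 0.24 (adjusted p = 0.0237).

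Among 18 regulators of mitochondrial biogenesis, 1 rose and 4 fell, 27.8% beside the 29.0% of all probe sets. GABPA and GABPB1, which together form the ETS factor that binds many promoters of this pathway, fell by 0.51 (limma adjusted p = 0.0207) and 0.49 (adjusted p = 0.00169). HCFC1 fell by 0.47 (adjusted p = 0.00553) and MEF2A rose by 0.32 (adjusted p = 0.0111). The genes named in these lists were those with the smallest p, up to 4 per list. Their calls were therefore likely to hold in refits of the same arrays, and they do not stand for all called genes of the lists. Of the 37 genes so named for passing with progestin, 31 passed in all 9 alternatives and with any array left out. COQ10B, TIMM21, TIMM44, TIMM22, SLIRP and GABPA lost the call with at least 1 of the arrays left out: the first vehicle array for all 6, and for 5 of them, TIMM21 being the exception, also others, with an adjusted p of up to 0.0892.

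**Figure D4:**
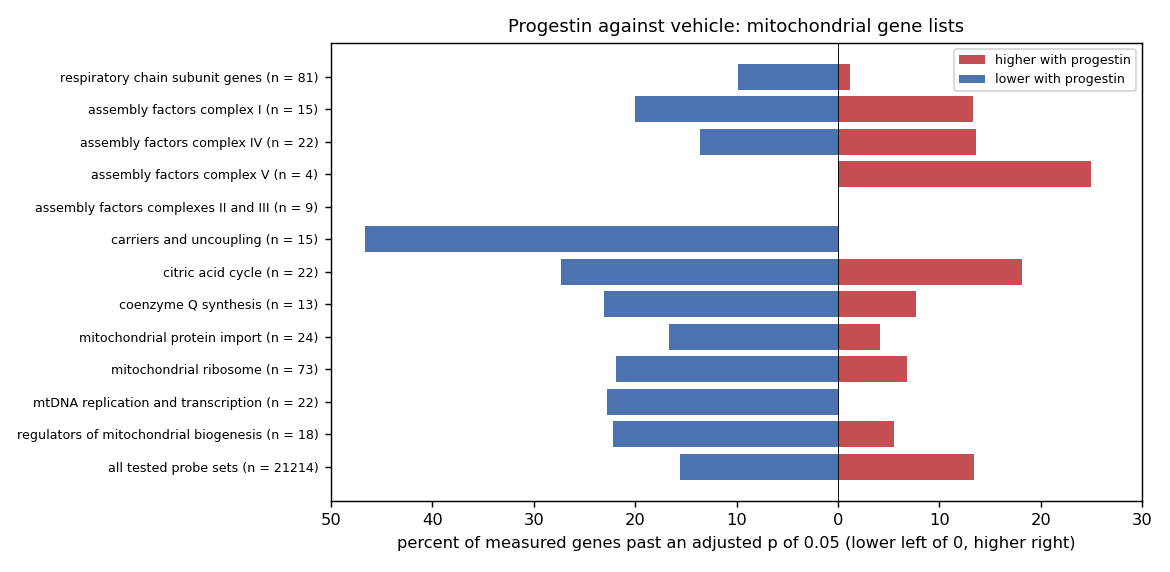
Percent of the measured genes of each list that passed an adjusted p of 0.05 with progestin against vehicle, lower to the left of 0 and higher to the right, with the number of genes in brackets. In the main fit the respiratory chain subunit genes, at 1 of 81 higher and 8 lower, stand beside 13.4% higher and 15.6% lower over all tested probe sets.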

How the data were processed

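The log2 values per probe set were deposited by the authors. The log2 scale was inferred from their range. Tools listed in the submitters' processing notes, without role or version, are PLIER, limma, Affymetrix Expression Console and Affymetrix Power Tools, and background correction and normalization are not given in the sources used here. Of 33297 probe sets, the 21214 with at least 1 gene symbol were tested (19460 with 1 symbol, 1754 with several). Groups were compared with limma 3.58.1 in R 4.3.3, with moderated variances and Benjamini-Hochberg adjustment over these. The fit was run on simulated data with independent noise and changes larger than those of nearly all members. That run does not show how changes as small as the members' are called. A p-value here reflects spread among arrays, whose number limits precision: an exact permutation test of 3 against 3 cannot go below 0.1. The members and lists were chosen with earlier results of these data known. Named were members that passed, the highest and lowest of each complex, succinate dehydrogenase, isoform families, and up to 4 genes of each other list, those with the smallest p. NDUFS1, NDUFB4, ATP5F1A, ATP5F1C and ATP5F1D were added after their values were seen. The main fit did not pair arrays by replicate number, and whether same-numbered arrays share a batch is not stated. Over the probe sets above the median level, correlations of same-numbered deviations ran from -0.26 to 0.48. Those of arrays with other numbers ran from -0.51 to 0.28. Over all probe sets the same-numbered ones ran from -0.15 to 0.20.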

Additional observations from a re-analysis of the deposited data

How the results depend on the processing

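Members called with progestin against vehicle numbered 9, and 4 with the 2 groups fitted alone, 4 with a replicate block, 15 without the dimmest 25% of probe sets, 16 after quantile normalization, 29 with array weights, 21 with robust eBayes and a variance trend, and 3 to 13 with 1 array left out. For progestin plus doxycycline against vehicle they numbered 9, and 4 with the 2 groups alone, 14 after median centring, 21 after quantile normalization, 18 with the variance trend, 30 with array weights, and 5 to 11 with 1 array left out. CYC1, COX8A and NDUFA13 kept their calls against vehicle in all of these. The replicate block ended the calls of CYCS, ATP5F1B, NDUFAB1, NDUFS3 and NDUFS6 with progestin, and of COX5B, NDUFA9, NDUFS3 and UQCRC2 for progestin plus doxycycline against vehicle. For doxycycline added to progestin, 0 members passed in all of these. Over all probe sets that comparison gave 4 calls, 0 with the 2 groups alone, 0 with the replicate block, 8 with array weights, 15 with 16 added to the linear values, 158 without the dimmest 25%, 530 with the variance trend, and 0 to 2 with 1 array left out. Array weights raised the count over all probe sets with progestin from 6161 to 9502. That is from 29.0% to 44.8% of all, beside 11.1% and 35.8% of the members. With 1 array left out the count over all was 4632 to 6118, and 4815 to 5889 for progestin plus doxycycline against vehicle. Shares over all probe sets are not given here for every fit. The member counts alone therefore do not show a change particular to the members. The complex IV median with progestin, -0.07, became 0.0071 with array weights and 0.0164 without the dimmest 25%. Against vehicle with doxycycline, median centring moved the members' median from -0.0111 to -0.0735 and that of complex IV from 0.0210 to -0.0414. With 1 array left out, medians with progestin ran from 0.0096 to 0.0900 in complex I and from -0.0695 to 0.0344 in complex IV, and with doxycycline against vehicle from -0.0093 to 0.0975 in complex I and from -0.1083 to -0.0096 in complex V. No called member changed sign, and the causes were not tested. Counting NDUFA4 and NDUFA4L2 in complex I was not run, since the probe sets with a single symbol held neither.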
